A study of Mus musculus with 21 samples.

Results

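The genes for axon guidance ligands and receptors were followed in cortex after repeated head impact. They were picked by name, and the choice of families was made with earlier results of these data known. The rule took GENCODE symbols of an Eph receptor, an ephrin, a semaphorin of classes 3 to 7, a plexin, a neuropilin, a Slit or a Robo receptor. Symbols of a netrin, Dcc, an Unc5 receptor, Nogo, a Nogo receptor or a Dpysl (CRMP) protein were also taken. This rule gave 37 genes of the 5544 in the table. In the annotation 82 protein-coding genes carry such a name, and the other 45, among them every netrin, Dcc, Nrp2 and most ephrins, were not analysed here. Whole cortex was taken from male C57BL/6 mice (C57Bl/6J in the study's methods) aged 12 weeks, 24 h after the final session, and total RNA depleted of ribosomal RNA was sequenced as 1 library per mouse. Mice of the high-frequency head impact group (HF-HI, n = 11) received repeated blows to the head, and sham mice (n = 10) were handled and anesthetized with isoflurane in the same way without impacts. All 21 mice were labelled as wild type.

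Axon guidance molecules steer growing axons by attraction or repulsion, and many stay expressed in the adult cortex, where they act on synapses, spines and vessels. Ephrins bind Eph receptor tyrosine kinases at cell contacts, semaphorins bind plexins with or without a neuropilin, Slits bind Robo receptors, and netrins bind Dcc and Unc5 receptors. Nogo, made by oligodendrocytes and neurons, binds the Nogo receptor and restrains axon growth, and the Dpysl proteins act inside the cell, on the cytoskeleton, downstream of semaphorins.

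The promoters of 4 genes whose sham and HF-HI libraries did not overlap are printed: those of Rtn4r, Unc5a and Efnb2, the genes with the largest differences, and of Plxnc1, the separated gene that was lower in HF-HI. Each is the run of 250 bases before the RefSeq start on GRCm38.p6, read 5′ to 3′ on the strand of the gene, with CpG dinucleotides in capitals.
Rtn4r (chr16:18127392-18127641, plus strand): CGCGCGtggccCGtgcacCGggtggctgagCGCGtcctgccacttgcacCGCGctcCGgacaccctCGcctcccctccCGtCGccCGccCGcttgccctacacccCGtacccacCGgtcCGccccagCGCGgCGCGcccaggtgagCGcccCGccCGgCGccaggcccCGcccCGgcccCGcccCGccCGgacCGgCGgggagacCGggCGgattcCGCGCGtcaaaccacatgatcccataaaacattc
Unc5a (chr13:54949161-54949410, plus strand): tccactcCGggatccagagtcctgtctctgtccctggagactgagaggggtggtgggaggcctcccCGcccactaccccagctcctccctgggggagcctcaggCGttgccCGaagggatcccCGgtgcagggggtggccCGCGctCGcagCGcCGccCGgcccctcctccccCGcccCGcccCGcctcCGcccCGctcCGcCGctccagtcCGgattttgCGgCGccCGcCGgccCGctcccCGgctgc
Efnb2 (chr8:8661243-8661492, minus strand): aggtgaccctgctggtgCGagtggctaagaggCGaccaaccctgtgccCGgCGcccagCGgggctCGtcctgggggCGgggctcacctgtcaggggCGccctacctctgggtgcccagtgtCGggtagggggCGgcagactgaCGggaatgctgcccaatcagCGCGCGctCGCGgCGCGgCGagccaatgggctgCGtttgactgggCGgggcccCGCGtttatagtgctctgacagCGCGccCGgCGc
Plxnc1 (chr10:94944846-94945095, minus strand): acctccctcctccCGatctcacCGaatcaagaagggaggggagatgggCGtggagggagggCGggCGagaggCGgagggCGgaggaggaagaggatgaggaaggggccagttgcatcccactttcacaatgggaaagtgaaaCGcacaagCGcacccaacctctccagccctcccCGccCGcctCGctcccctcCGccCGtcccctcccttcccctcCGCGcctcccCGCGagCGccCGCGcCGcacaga
The Rtn4r window held 38 CpG, more than 98.1% of 32851 promoter windows of the same length. Unc5a had 25, Efnb2 had 27 and Plxnc1 had 22, and the median window held 6. The median was 17 CpG in the 14 windows of genes higher in HF-HI, 21 in the 6 windows of genes lower in HF-HI and 17 in the 17 windows of genes that were not called, over 37 windows of the 29 genes with an entry. Elements for the factors CREB, Egr and E-box proteins were searched on both strands, and none of them lies within another. The cAMP response element TGACGTCA was in 1.55% of all windows and in 0 of the 37. The Egr element GCGTGGGCG was in 0.536% of all windows and in 1 of the 37, that of Plxna2, and the E-box CACGTG was in 6.02% of all windows and in 2 of the 37, those of Robo2 and Sema6d. None of the promoters printed here held any of these letters.

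Expression is given as variance-stabilized values, which lie on a log2 scale and are normalized for library size. A difference is the HF-HI mean minus the sham mean on that scale, and since the transformation compresses low values, a fold made from it understates the change of weakly expressed genes. Total depth is unknown, so the replicate spread sets the precision. The SD within groups, pooled over sham and HF-HI for each gene, had a median of 0.13 over the 37 genes and 0.10 over the whole table. A gene is called higher or lower where the adjusted p of limma, fitted and adjusted over all 5544 genes, was under 0.05.

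Of the 37 genes, 15 were higher in HF-HI, 6 were lower and 16 did not pass the threshold. Over all genes 66.3% passed, against 56.8% of the guidance genes, so the share called was near, and slightly below, that of the table. The higher calls made up 40.5% of the guidance genes and 32.6% of the table, and the lower calls 16.2% and 33.6%. The median difference was 0.079 for the guidance genes and -0.0086 for the table, and the median size of a difference was 0.15 and 0.16. In 6 genes (16.2%) every HF-HI library lay on the same side of every sham library, which was so for 13.5% of the table. Of these, 5 were higher (Unc5a, Rtn4r, Efnb2, Sema6b and Rtn4rl1) and Plxnc1 was lower. By role, 9 of 22 receptors were higher and 4 lower, and 5 of 13 ligands were higher and 2 lower.

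**Figure D1:**
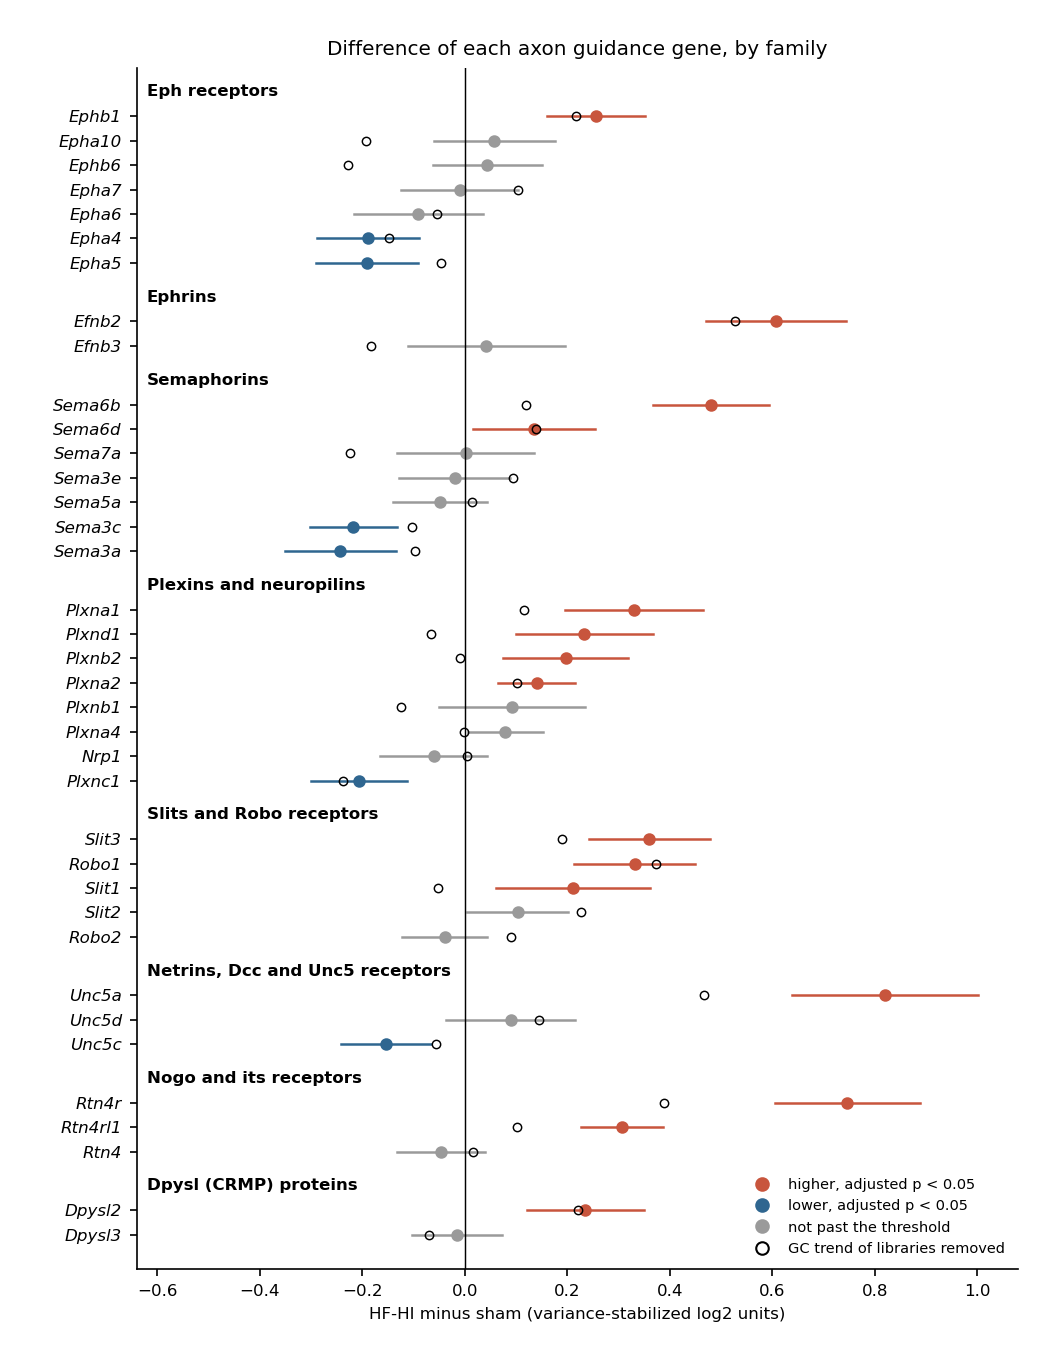
Difference between HF-HI (n = 11) and sham (n = 10) for each of the 37 genes by family, in variance-stabilized log2 units on the horizontal axis. Filled points with bars are the limma estimate and its 95% interval, red for higher, blue for lower and grey for genes not past the threshold, and open circles are the estimate after each library's GC trend was removed. Unc5a (0.82), Rtn4r (0.75) and Efnb2 (0.61) lie farthest to the right, and no gene lies below -0.24.

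The libraries differed in how expression followed the GC content of the exons, and this moved with the groups. The slope over all genes, in log2 units per 10% GC around the mean of all libraries, ran from -0.23 to 0.0058 in sham and from -0.039 to 0.16 in HF-HI. Over the 37 genes the difference rose with exonic GC content (Spearman's rho 0.66 across genes, which share the same 21 libraries and are not independent; 0.48 over the whole table), and the median GC content was 56.9% for the 15 higher genes, 41.5% for the 6 lower and 44.9% for the 16 others. With each library's trend on GC content removed, 12 guidance genes were higher and 9 lower, while 60.2% of all genes were called (29.2% higher, 31% lower). Of the 15 higher genes 10, and of the 6 lower genes 4, kept their call, 7 lost it and 7 others gained one, and the median difference was 0.014. With each library centred on its median instead, 14 were higher and 9 lower, and of all genes 26.1% were higher and 42.9% lower. Values with the trend removed stand beside each guidance gene where they end or add a call, turn its direction or change its size by more than 1.5 times.

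**Figure D2:**
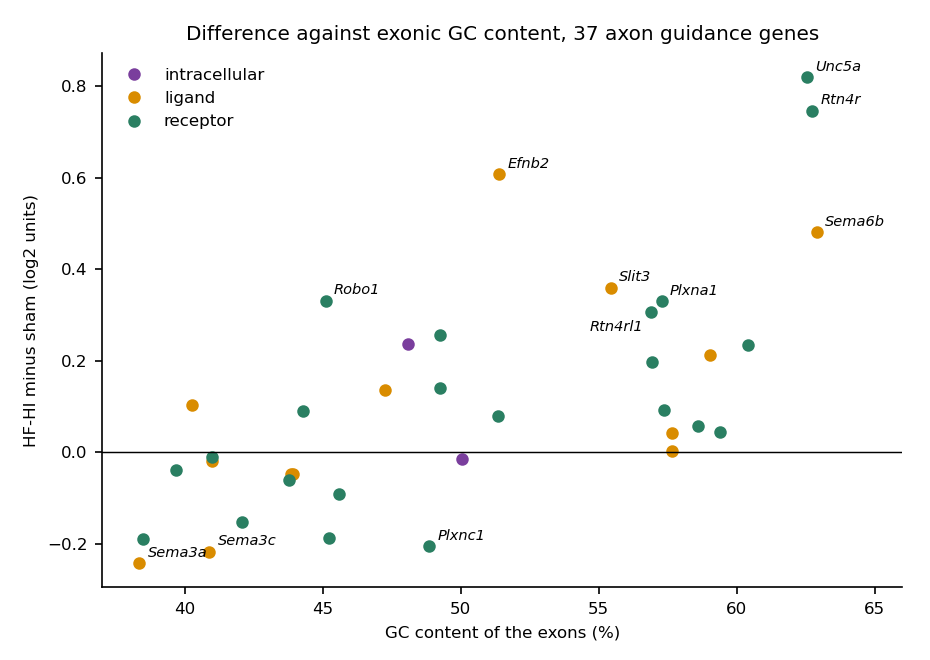
Difference between HF-HI and sham in log2 units (vertical axis) against the GC content of the exons in percent (horizontal axis), with 1 point per gene, colored as ligand, receptor or intracellular protein. Genes with the largest differences are named, and every gene at the right of the plot lies above 0 while Sema3a and Sema3c lie at the lower left.

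Ephrins were represented by 2 of 8 genes, and Efnb2 was among the largest differences of all guidance genes. Efnb2 (ENSMUSG00000001300, chr8:8617434-8661242, minus strand, mm10) encodes ephrin-B2, a transmembrane ligand of EphB receptors and EphA4 that is also known from arterial endothelium. Its level ran from 8.25 through a median of 8.42 to 8.82 in sham libraries and from 8.86 through 9.09 to 9.32 in HF-HI libraries. The lowest HF-HI library thus lay just above the highest sham library, by 0.037. The means were 8.47 ± 0.19 (SD, n = 10) and 9.08 ± 0.13 (SD, n = 11), a difference of 0.61 with an SE of 0.066, or 1.52-fold (adjusted p = 6.86e-08, limma). It was 0.53 with the GC trend removed, although the groups then overlapped. Efnb3, the other ephrin, had a difference of 0.042 (95% interval -0.11 to 0.20) that did not pass, and with the trend removed it was called lower at -0.18.

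Among Eph receptors, 7 of 14 genes were in the table, and Ephb1 was higher while Epha4 and Epha5 were lower. Ephb1, a receptor of ephrin-B ligands, ran from 8.28 to 8.60 around a median of 8.38 in sham and from 8.51 to 8.94 around 8.66 in HF-HI. In Ephb1 8 of 11 libraries lay above every sham library, and the difference was 0.26 with an SE of 0.046 (adjusted p = 4.99e-05). Epha5, an ephrin-A receptor of cortical neurons, spanned 10.12 to 10.40 in sham (median 10.18) and 9.87 to 10.22 in HF-HI (median 9.999). Of the HF-HI libraries 8 lay below every sham library, and the difference was -0.19 with an SE of 0.048 (adjusted p = 0.00144). The call was lost with the GC trend removed, at -0.046. Epha4, which binds ephrins of both classes and is among the most strongly expressed guidance genes, had the same difference of -0.19 (adjusted p = 0.0016), and it was -0.15 with the trend removed. Epha7 (-0.0097), Epha6 (-0.090), and the kinase-dead receptors Epha10 (0.058) and Ephb6 (0.044) did not pass. With the GC trend removed Epha10 and Ephb6 were called lower, at -0.19 and -0.23, and Epha7 (0.10) and Epha6 (-0.055) still did not pass.

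**Figure D3:**
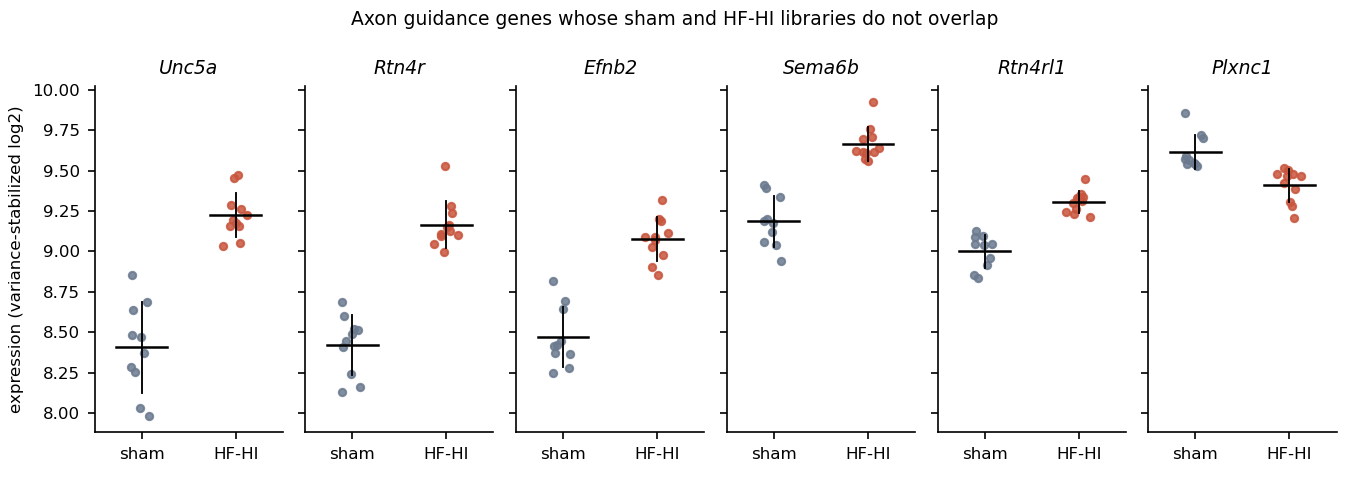
Variance-stabilized log2 expression of the 6 genes whose sham (grey, n = 10) and HF-HI (red, n = 11) libraries do not overlap, with 1 point per library, a horizontal line at the mean and a vertical bar for the SD. Rtn4r has the widest gap between the groups, 0.31, and Plxnc1, the gene that is lower, the narrowest, 0.012.

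Of the semaphorins 7 of 20 genes were in the table. Sema6b and Sema6d were higher, Sema3a and Sema3c were lower, and Sema5a, Sema7a and Sema3e did not pass. Sema6b (ENSMUSG00000001227, chr17:56123085-56140343, minus strand) encodes a ligand of A-class plexins. It ran from 8.94 through a median of 9.18 to 9.41 in sham and from 9.56 through 9.62 to 9.92 in HF-HI, so that 0.15 separated the groups. The means were 9.19 ± 0.16 (SD, n = 10) and 9.67 ± 0.10 (SD, n = 11), a difference of 0.48 with an SE of 0.055, or 1.40-fold (adjusted p = 1.34e-07). Sema6b has the highest exonic GC content of the 37 genes, 62.9%, and with the GC trend removed its difference was 0.12 and no longer called (adjusted p = 0.0623). Sema6d differed by 0.14 (adjusted p = 0.042), a call that held in 8 of 21 fits with 1 library left out and reached an adjusted p of 0.091 in the weakest of the others.

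Sema3a, the secreted repellent that acts through neuropilin 1 and plexin A receptors, ran from 9.06 to 9.55 in sham (median 9.31) and from 8.95 to 9.27 in HF-HI (median 9.07). The groups overlapped, with 4 HF-HI libraries below every sham library, and the difference was -0.24 with an SE of 0.053 (adjusted p = 3.42e-04). Sema3c, of the same secreted class, fell by 0.22 on the log2 scale (adjusted p = 7.95e-05), with 9 HF-HI libraries below all of sham. Both kept their call with the GC trend removed, but at less of the size, -0.097 (adjusted p = 0.0388) for Sema3a and -0.10 for Sema3c. The third secreted semaphorin, Sema3e, had a difference of -0.020 (95% interval -0.13 to 0.088), which was 0.093 with the trend removed and passed in neither fit. Sema5a stood at -0.048 and the membrane-anchored Sema7a at 0.0020, and with the trend removed Sema5a was at 0.014, not called, and Sema7a was called lower at -0.22.

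Their receptors, the plexins and neuropilins, were in the table as 8 of 11 genes. Of these 4 were higher, 1 was lower and 3 did not pass, where 32.6% of the table was higher and 33.6% lower. With the GC trend removed 2 were higher and 2 lower, against 29.2% and 31% of all genes. Plxna1 (9.85 to 10.38 in sham, median 9.98; 10.23 to 10.53 in HF-HI, median 10.36) encodes a co-receptor of secreted semaphorins. It was higher by 0.33 with an SE of 0.065 (adjusted p = 1.25e-04), with 5 HF-HI libraries above every sham library. With the GC trend removed the difference was 0.12 (adjusted p = 0.0406), and 10.7% of its exonic bases overlap an antisense gene. Plxna2, another plexin of class A and the most abundant plexin per length of exon, differed by 0.14 (adjusted p = 0.00162). Plxnd1, the receptor of Sema3e, differed by 0.23 (adjusted p = 0.00302) and Plxnb2 by 0.20 (adjusted p = 0.00554). Neither call held with the GC trend removed, where the differences were -0.067 and -0.0094.

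Plxnc1 (ENSMUSG00000074785, chr10:94790866-94944835, minus strand), the plexin that binds Sema7a, was the single guidance gene that was lower in every HF-HI library than in any sham library. Sham libraries lay at 9.53 to 9.85 with a median of 9.57, and HF-HI libraries at 9.21 to 9.52 with a median of 9.47. The gap between the groups was 0.012. The means were 9.62 ± 0.11 (SD, n = 10) and 9.41 ± 0.10 (SD, n = 11), a difference of -0.21 with an SE of 0.045 (adjusted p = 3.64e-04). It was -0.24 with the GC trend removed, and the groups still did not overlap. Nrp1, the neuropilin that binds Sema3a, had a difference of -0.060 (95% interval -0.16 to 0.044) and one of 0.0046 with the trend removed. Plxna4, a receptor of Sema6b, stood at 0.079 (adjusted p = 0.0541) and Plxnb1 at 0.092, and neither passed. With the GC trend removed Plxna4 stood at -6.9e-04, and Plxnb1 was called lower at -0.12.

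Slits and their Robo receptors, 5 of 7 genes, held 3 higher calls and no lower one, where 32.6% of the table was higher and 33.6% lower. Slit3, a secreted ligand, ran from 8.39 to 8.92 in sham (median 8.64) and from 8.81 to 9.13 in HF-HI (median 9.05). In 8 HF-HI libraries it was above every sham library, and the difference was 0.36 with an SE of 0.057 (adjusted p = 1.00e-05). It was 0.19 with the GC trend removed. Robo1, the receptor, was higher by 0.33 (adjusted p = 2.76e-05), with 9 HF-HI libraries above all of sham, and with 45.1% GC in its exons it kept its size when the trend was removed, at 0.37. Slit1 was higher by 0.21 (adjusted p = 0.0134), and with the trend removed it stood at -0.051 and was not called. Slit2 (0.10, adjusted p = 0.0584) and Robo2 (-0.039) did not pass, while with the trend removed both were called higher, at 0.23 and 0.090. After that step 4 of the 5 genes were called higher, against 29.2% of all genes, with Slit2 and Robo2 in the place of Slit1.

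Of the netrins, Dcc and Unc5 receptors matched by name, only Unc5a, Unc5c and Unc5d were in the table. They were matched among 13 genes, Unc50 and Unc5cl included. Neo1 and Dscam, which the name rule did not cover, were in the table and did not pass, at -0.0056 and 0.077. With the GC trend removed they stood at 0.0021 and -0.033, also not called. Unc5a (ENSMUSG00000025876, chr13:54949411-55006018, plus strand), a receptor that turns the response to netrin into repulsion, showed the largest difference among the 37 genes. Its level ran from 7.98 through a median of 8.42 to 8.86 in sham and from 9.04 through 9.19 to 9.47 in HF-HI. All HF-HI libraries were above all sham libraries, by at least 0.18, and the sham libraries were the more widely spread. The means were 8.41 ± 0.28 (SD, n = 10) and 9.23 ± 0.14 (SD, n = 11), a difference of 0.82 with an SE of 0.088, or 1.76-fold (adjusted p = 5.33e-08). With the GC trend removed it was 0.47 and the groups still did not overlap. Unc5c moved the other way, from 9.55 to 9.84 in sham (median 9.69) to 9.41 to 9.72 in HF-HI (median 9.54), a difference of -0.15 with an SE of 0.043 (adjusted p = 0.00323). Its call was lost with the trend removed, at -0.057. Unc5d had a difference of 0.090 (95% interval -0.037 to 0.22), or 0.14 with the trend removed, and did not pass in either fit.

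**Figure D4:**
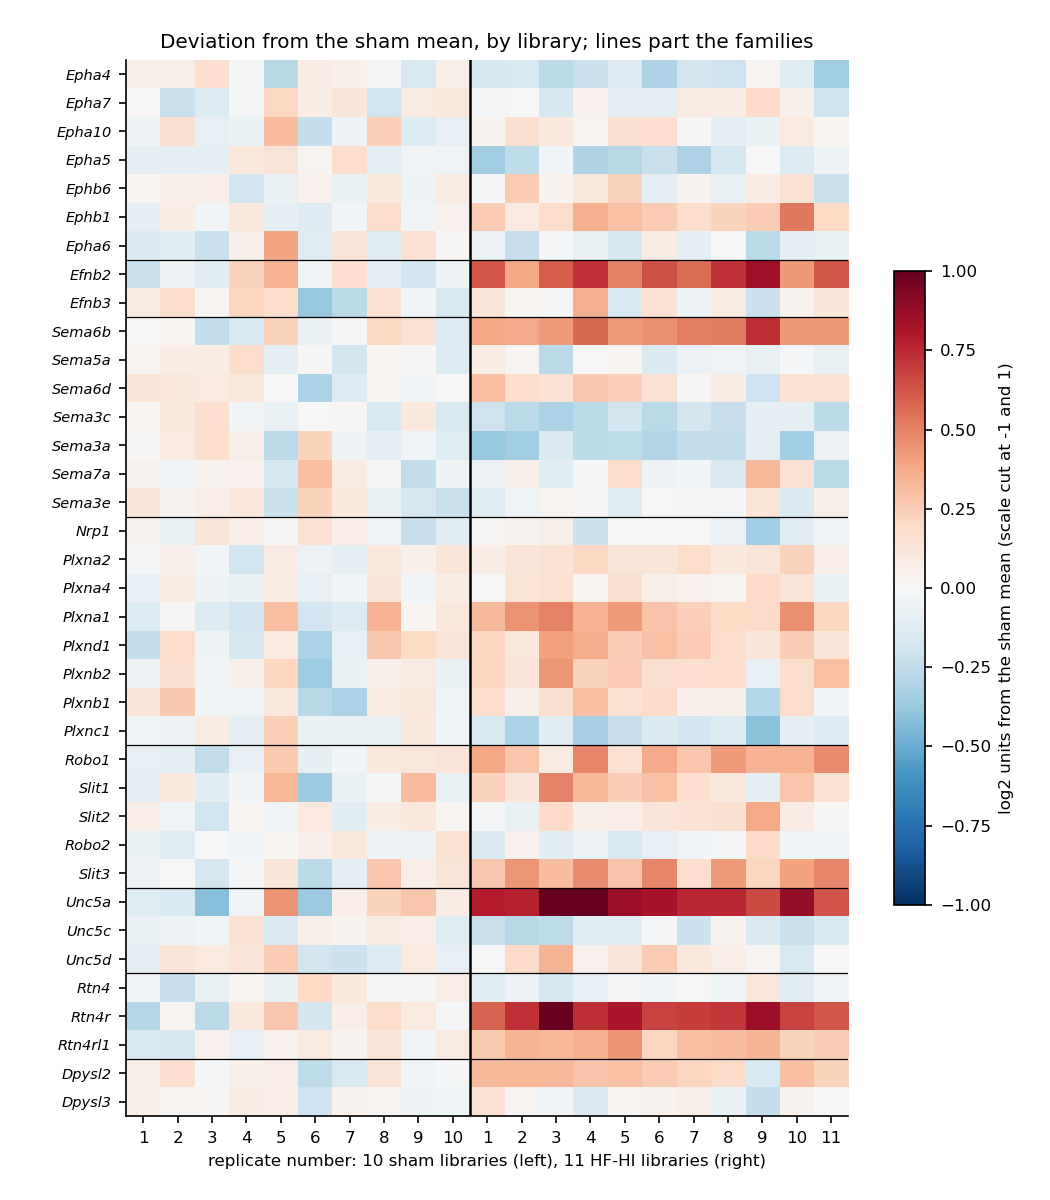
Deviation of each of the 37 genes (rows) from its sham mean in each of the 21 libraries (columns, sham on the left, HF-HI on the right), in log2 units on a color scale cut at 1 unit above and below 0. Black lines part the families. The rows of Unc5a, Rtn4r, Efnb2 and Sema6b are above the sham mean in every HF-HI library and have the largest mean deviations. Those of Rtn4rl1, Plxna1, Slit3, Robo1, Ephb1, Plxnd1 and Plxna2 are also above it in every HF-HI library. Those of Plxnc1, Sema3a, Sema3c and Epha5 are below it in every one, and the other rows are mixed.

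In the Nogo system the receptors were higher and the ligand did not pass. Rtn4r (ENSMUSG00000043811, chr16:18127642-18152408, plus strand) encodes the Nogo receptor, a membrane-anchored protein that binds Nogo and the myelin proteins Mag and Omg. Sham libraries ran from 8.13 through a median of 8.47 to 8.69, and HF-HI libraries from 8.999 through 9.13 to 9.53. The gap between the groups, 0.31, was the widest of the 6 separated genes. The means were 8.42 ± 0.19 (SD, n = 10) and 9.17 ± 0.14 (SD, n = 11), a difference of 0.75 with an SE of 0.068, or 1.68-fold (adjusted p = 5.84e-09), the smallest adjusted p among the 37 genes. It was 0.39 with the GC trend removed (62.7% GC in its exons), and the groups then overlapped.

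Rtn4rl1 (ENSMUSG00000045287, chr11:75193783-75267769, plus strand), a related receptor, ran from 8.84 through 9.04 to 9.13 in sham and from 9.22 through 9.31 to 9.45 in HF-HI, again with no overlap. The means were 9.001 ± 0.10 (SD, n = 10) and 9.31 ± 0.067 (SD, n = 11), a difference of 0.31 with an SE of 0.039, or 1.24-fold (adjusted p = 5.27e-07). With the GC trend removed the difference was 0.10 and not called (adjusted p = 0.0712). Rtn4, the gene of Nogo, spanned 13.22 to 13.65 in sham (median 13.45) and 13.29 to 13.57 in HF-HI (median 13.41). Its difference of -0.047 did not pass (95% interval -0.13 to 0.039, adjusted p = 0.325) and was 0.017, also not called, with the trend removed. Of its exonic bases 18.4% overlap Eml6 on the opposite strand.

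Other parts of the receptor complex were taken from a list of 35 partners of guidance receptors, of which 30 were in the table. Lingo1, the co-receptor of the Nogo receptor, ran from 9.69 through 9.85 to 10.15 in sham and from 10.67 through 10.80 to 11.15 in HF-HI. No library of either group came near the other, and the difference was 0.96 with an SE of 0.064 (adjusted p = 9.03e-11), or 0.66 with the GC trend removed. Tnfrsf19, another co-receptor, differed by -0.12 (adjusted p = 0.00368). The myelin ligands Omg and Mag did not pass, at 0.060 and 0.040, and with the trend removed Omg was called higher at 0.16 while Mag stood at -0.12, not called. Over the partners 11 were higher (36.7%, against 32.6% of the table) and 6 lower (20%, against 33.6%), with a median of 0.050. With the trend removed 13 partners were higher and 6 lower. The list of partners was made with earlier results of these data known, so its shares are not independent of the data. The largest higher calls after Lingo1 were the heparan sulfate proteoglycan Sdc3 (0.51) and the adhesion receptor Adgrl1 (0.45), which were 0.28 and 0.19 with the trend removed. The largest lower calls were the adhesion molecules Chl1 (-0.24), Adam22 (-0.22) and Cntn1 (-0.19), of which Chl1 stood at -0.11 and Cntn1 at -0.11 with the trend removed.

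**Figure D5:**
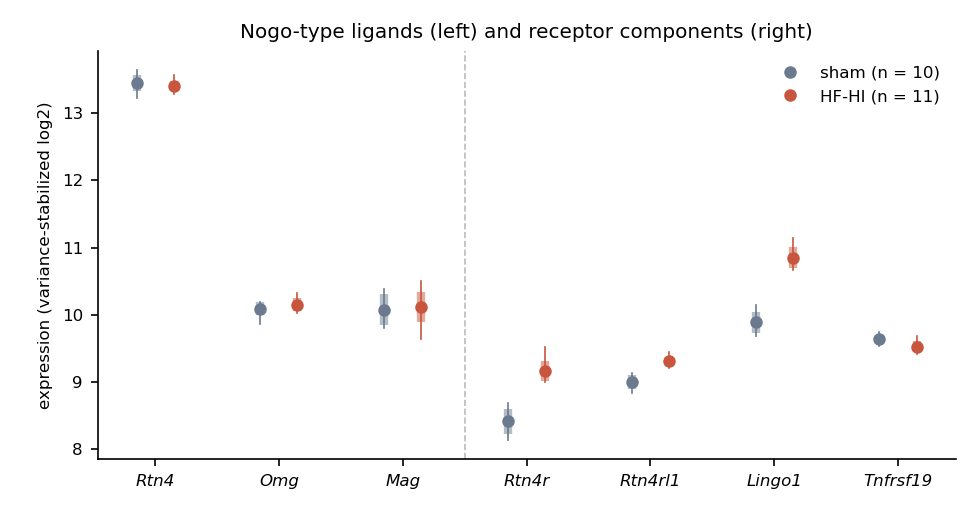
Variance-stabilized log2 expression of Nogo-type ligands (Rtn4, Omg, Mag) and of receptor components (Rtn4r, Rtn4rl1, Lingo1, Tnfrsf19) in sham (grey, n = 10) and HF-HI (red, n = 11). Points are means, thick bars the SD and thin lines the full range. The groups overlap for the 3 ligands and for Tnfrsf19 and are apart for Rtn4r, Rtn4rl1 and Lingo1.

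Inside the cell, Dpysl2 was higher and Dpysl3 did not pass. Dpysl2, also called CRMP2, binds tubulin and carries the signal of Sema3a to the cytoskeleton. It ran from 12.82 through a median of 13.09 to 13.23 in sham and from 12.91 through 13.35 to 13.40 in HF-HI, and 10 of 11 HF-HI libraries lay above every sham library. The difference was 0.24 with an SE of 0.055 (adjusted p = 6.77e-04). The exception was HF-HI replicate 9. Dpysl3 had a difference of -0.015 (95% interval -0.10 to 0.073), or -0.070 with the GC trend removed, and passed in neither fit.

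Downstream effectors of guidance receptors, a list of small GTPases, their regulators, kinases and actin proteins, had 57 of 71 genes in the table. Of these 28 were higher (49.1%, against 32.6% of the table) and 10 lower (17.5%, against 33.6%), with a median of 0.11. With the GC trend removed 28 were higher and 12 lower, where 29.2% of all genes were higher and 31% lower. The share called was 66.7%, against 66.3% of the table. The groups did not overlap in 14 (24.6%, against 13.5% of the table), 13 of them higher, as were 483 of the 747 such genes of the table. The effectors were listed with earlier results of these data known, so their shares are not independent of the data. The effectors with the largest higher calls were the scaffold Git1 (0.62, adjusted p = 8.61e-09), the tyrosine kinase Abl1 (0.55, adjusted p = 2.02e-08) and the actin-severing protein Cfl1 (0.55, adjusted p = 3.08e-05). Git1 stood at 0.37 with the GC trend removed, and Cfl1 varied far more in sham (SD 0.34) than in HF-HI (SD 0.058). The largest lower calls were the kinase Pak3 (-0.32, adjusted p = 8.66e-08), the small GTPase Cdc42 (-0.26, adjusted p = 6.80e-06) and the kinase Pak1 (-0.19, adjusted p = 8.24e-04). Pak3 and Cdc42 stood at -0.20 and -0.15 with the trend removed.

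Levels were compared between genes only per length, as the sham mean minus the log2 of the exonic length in kilobases. On this scale Dpysl2 (10.9) and Rtn4 (10.6) were the most abundant of the 37 genes, followed by Epha4 (9.23). Slit2 (4.54) and Robo1 (4.70) were the least. The length counts every annotated exon, 25433 bases for Slit2 and 16511 for Robo1, so the order depends on the annotation. Of the separated genes, Rtn4r stood at 7.47, Sema6b at 7.20, Rtn4rl1 at 7.18, Plxnc1 at 6.56, Unc5a at 6.35 and Efnb2 at 5.69. All 6 lay between these extremes, but without the correction for length Unc5a, Rtn4r and Efnb2 were in the lowest quartile of the table.

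In whole cortex, fewer cells of a type and less RNA per cell cannot be told apart. Neuronal markers, 10 of 10 in the table, had a summed level of 16.54 to 16.67 in sham and 16.66 to 16.79 in HF-HI. Of them 6 were higher and 1 lower, or 5 and 0 with the GC trend removed. Of 9 astrocyte markers (16.39 to 16.48 and 16.47 to 16.56) 4 were higher and 2 lower, or 3 and 3 with the trend removed. Of 9 oligodendrocyte markers (15.29 to 16.01 and 15.32 to 16.01), which include Mag, 3 were higher and 0 lower, but 2 and 3 with the trend removed. The table held 2 of 10 microglial markers (10.53 to 10.72 and 10.42 to 10.64), 1 higher and 1 lower, or 0 and 1 with the trend removed. It held 3 of 10 endothelial markers (10.55 to 10.83 and 10.66 to 10.80), 1 higher and 1 lower in both fits. Over all genes 32.6% were higher and 33.6% lower, or 29.2% and 31% with the trend removed. The part of the marker shifts in the guidance genes was not tested. No pair of libraries was identical, and the sequencing pool of each library was not named in the labels. Among sham libraries, replicate 6 was the lowest in 12 of the 37 genes and replicate 5 the highest in 12. HF-HI libraries were not counted in this way.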

How the data were processed

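Cortical libraries of 10 sham and 11 HF-HI mice were compared. The authors made stranded total RNA libraries with Ribo-Zero, aligned reads to mm10 with STAR, counted them per transcript with eXpress and normalized with DESeq2, and deposited variance-stabilized log2 values. The versions of STAR and eXpress, the annotation, the strand setting and the threshold for low genes are not given in the sources used here, and depth is unknown. Genes were matched by Ensembl ID to GENCODE (5541 of 5544 had a symbol). The members and lists were chosen with earlier results of these data known, and ligand or receptor roles after values were seen.

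The whole table was fitted with limma 3.58.1 in R 4.3.3 (lmFit, eBayes with trend, two-sided), and p-values were adjusted by Benjamini-Hochberg and called under 0.05. A file of log2 values allowed no count model. GC trends (5539 genes) were removed per library by lowess (span 0.3) on deviations from the mean of all libraries, which would also remove biology that follows GC content. Marker sums are the log2 of summed 2-to-the-value levels. Other alternatives were an adjusted p of 0.1, a difference of at least 0.25, eBayes without trend, the exact Wilcoxon rank-sum test, median centring, quantile normalization, dropping the lowest quartile, the replicate number as a block, and leaving out each library. The fit was tested on simulated data. Values of every group are given for members without overlap and for the largest call per family and direction, and 3 genes per direction for the partner and effector lists. Omg, Mag and Tnfrsf19 were named for their role beside Lingo1 after values were seen. Promoter sequences were from RefSeq (GRCm38.p6). Python 3.11.15 was used for the rest.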

Additional observations from a re-analysis of the deposited data

Results flagged for a closer look

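In 2 genes a sham library lay far below the rest of its group. For Plxnb2, sham replicate 6 was at 8.30, with the nearest sham library at 8.59, a gap of 0.51 of the group's range. For Dpysl3 the same library was at 8.37 and the nearest at 8.52, a gap of 0.53 of the range. Both shares pass Dixon's limit for 10 samples, which chance passes in about 1 of 20 groups. The sham group of each of the 37 genes was examined, and the HF-HI group was not. For Dpysl2, HF-HI replicate 9 lay at 12.91, with the nearest HF-HI library at 13.26. The same library was also the lowest of HF-HI for Plxnb2 (8.58) and Nrp1 (8.45), and the highest for Epha4 (12.27) and Sema6b (9.92). Without sham replicate 6 the difference of Plxnb2 was 0.16 and that of Dpysl3 -0.037.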

How the results depend on the processing

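Of the 37 guidance genes, 21 passed the threshold. With a minimum difference of 0.25, 9 did (9 higher, 0 lower), since every lower call among the guidance genes was smaller than that. The same minimum left 0 lower partners and 2 lower effectors. Shares of all genes were not counted at this minimum, with the lowest quartile removed, under the replicate block or with 1 library left out. The counts at these settings therefore cannot be weighed against the whole table. With the lowest quartile of genes removed 12 passed, 7 of them higher, and 3 showed no overlap, because fewer genes were tested (24 of the 37). Unc5a, Rtn4r and Efnb2, the genes with the largest differences, were among those removed. With the GC trend removed 2 showed no overlap, Unc5a and Plxnc1. With 1 library left out, 20 to 23 passed, 14 to 17 higher and 6 to 6 lower, 6 to 7 showed no overlap, 11 to 13 partners were higher and 6 to 7 lower, and 27 to 29 effectors were higher and 8 to 10 lower. The Wilcoxon test and eBayes without a trend changed no call of the 37 genes. Median centring gained lower calls for Epha6, Sema5a and Rtn4 and lost that of Sema6d. Removal of the GC trend turned Epha7 to 0.10, Epha10 to -0.19, Ephb6 to -0.23, Efnb3 to -0.18, Sema5a to 0.014, Sema7a to -0.22, Sema3e to 0.093, Nrp1 to 0.0046, Plxna4 to -6.9e-04, Plxnd1 to -0.067, Plxnb2 to -0.0094, Plxnb1 to -0.12, Slit1 to -0.051, Robo2 to 0.090 and Rtn4 to 0.017. Other changes of sign were in genes not called: Ephb6 (-0.0078), Efnb3 (-0.0096) and Sema7a (-0.050) with median centring, Epha10 (-0.025) and Sema7a (-0.012) with quantile normalization, and with 1 library left out Epha7 (-0.035 to 0.013), Sema7a (-0.031 to 0.036), Efnb3 (-1.8e-04 to 0.068), Sema3e (-0.044 to 0.0055) and Dpysl3 (-0.037 to 0.0080).

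Replicate numbers shared by sham and HF-HI did not pair the mice: same-numbered libraries correlated at -0.31 to 0.36, 4 of 10 numbers were over 0.1, and 0 sham libraries correlated best with their own number. With the replicate block 23 genes passed, 17 higher and 6 lower, with Plxna4 and Slit2 gained, and Epha7 stood at 0.010. HF-HI replicate 11 has no sham library of its number, so it adds nothing to the difference under the block. The block differences therefore equal those with that library left out, also 0.010 for Epha7. With the block and the GC trend removed, 21 passed, 14 higher and 7 lower, and the signs that turned were those of Epha7 (0.13), Epha10 (-0.20), Ephb6 (-0.21), Efnb3 (-0.20), Sema5a (0.019), Sema7a (-0.20), Sema3e (0.091), Nrp1 (0.0057), Plxnd1 (-0.064), Plxnb2 (-0.027), Plxnb1 (-0.12), Slit1 (-0.053), Robo2 (0.098) and Rtn4 (0.017). Apart from the loss of HF-HI replicate 11 under the block, the cause of these changes was not tested.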
